A study of Mus musculus with 24 samples.

Results

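Car9, Car12, Slc16a1 and Slc16a3, 4 mouse genes that handle acid and lactate at the cell surface, were followed across 5 histone marks. Car9 and Car12 encode membrane-bound carbonic anhydrases, and Slc16a1 and Slc16a3 encode the monocarboxylate transporters MCT1 and MCT4. They were taken by their symbols from the RefSeq gene table of GRCm38.p6, the assembly behind mm10, and are 4 of its 21887 protein-coding genes. The cells were N1E115, a mouse neuroblastoma line described in the labels as NOS1-positive, so all groups share that property. They were kept for 3 days at 4% oxygen or at 20% oxygen. Chromatin immunoprecipitation followed by sequencing gave 2 libraries for each mark at 4% oxygen and 2 at 20% oxygen, 20 in all. The 4 remaining samples are inputs, which were not analysed here.

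A cell that runs on glycolysis makes lactate and protons, which MCT1 and MCT4 carry together across the plasma membrane. Carbonic anhydrases interconvert carbon dioxide with bicarbonate and a proton, and CA9 and CA12 do so on the outer face of the cell. Genes for CA9, CA12 and MCT4 are known in many human cell types as targets of the hypoxia-inducible factors, which bind the core letters ACGTG or GCGTG in DNA. Of the marks, H3K4me3 lies over active promoters, H3K27ac over active promoters and enhancers, H3K4me1 over enhancers and promoter flanks, H3K36me3 over transcribed gene bodies, and H3K27me3 over genes held silent by Polycomb.

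The promoters are shown because the marks at the gene starts are among the results and because they hold the letters that hypoxia-inducible factors bind. Each runs from 250 bases before to 50 bases after the RefSeq gene start, from the RefSeq promoter table on GRCm38.p6, all on the + strand and written 5′ to 3′. Capitals mark every match to ACGTG or GCGTG on either strand, a reverse-strand match appearing as CACGT or CACGC. The Car9 promoter is at chr4:43506776-43507075, that of Car12 at chr9:66713436-66713735, that of Slc16a1 at chr3:104638414-104638713 and that of Slc16a3 at chr11:120948817-120949116.
Car9: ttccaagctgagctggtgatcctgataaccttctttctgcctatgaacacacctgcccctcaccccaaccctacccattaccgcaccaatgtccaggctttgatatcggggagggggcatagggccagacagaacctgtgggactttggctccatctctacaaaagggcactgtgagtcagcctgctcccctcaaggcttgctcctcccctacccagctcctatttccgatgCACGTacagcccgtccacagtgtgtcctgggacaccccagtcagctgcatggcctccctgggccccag
Car12: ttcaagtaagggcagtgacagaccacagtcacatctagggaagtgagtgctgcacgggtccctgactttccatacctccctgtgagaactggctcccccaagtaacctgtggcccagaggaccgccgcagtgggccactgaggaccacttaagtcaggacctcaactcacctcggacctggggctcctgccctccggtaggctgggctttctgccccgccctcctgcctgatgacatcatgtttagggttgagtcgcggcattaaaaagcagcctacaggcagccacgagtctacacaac
Slc16a1: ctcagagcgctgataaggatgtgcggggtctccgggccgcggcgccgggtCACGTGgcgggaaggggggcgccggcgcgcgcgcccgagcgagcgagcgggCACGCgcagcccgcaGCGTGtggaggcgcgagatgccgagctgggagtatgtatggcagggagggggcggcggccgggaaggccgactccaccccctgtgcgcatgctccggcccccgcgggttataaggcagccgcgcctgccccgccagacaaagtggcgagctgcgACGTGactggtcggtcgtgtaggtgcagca
Slc16a3: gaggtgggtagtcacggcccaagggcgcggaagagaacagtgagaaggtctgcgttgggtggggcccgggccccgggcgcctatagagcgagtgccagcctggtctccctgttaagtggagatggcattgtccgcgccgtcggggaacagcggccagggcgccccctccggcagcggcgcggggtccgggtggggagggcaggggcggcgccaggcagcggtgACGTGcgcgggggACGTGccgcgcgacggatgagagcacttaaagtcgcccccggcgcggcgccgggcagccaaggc

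Positions of matches are counted from the gene start, with the first letter of the match as printed. Car9 held 1 match, CACGT at -18. Car12 held no match in this window. Slc16a1 held ACGTG on both strands in the palindrome CACGTG at -200, ACGTG at 21, CACGC at -149 and GCGTG at -134. Slc16a3 held ACGTG at -27 and at -14. Among 32851 promoters of the same length, 19.6% held ACGTG, 32.4% held GCGTG and 43.8% held either, so matches of this kind are common. The transporter promoters were rich in CpG, with 42 CpG in Slc16a1 and 36 in Slc16a3, against 9 in Car12, 5 in Car9 and a median of 7 over all promoters. Their GC content was 73.7% and 73.3%, against 58.3% in each carbonic anhydrase promoter and a median of 52.7% over all promoters.

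The measure used is the covered share, the percentage of a gene's window that lies under the peaks or islands of a library, where the window is the gene body with 10 kb on either side. It counts how much sequence passed the authors' peak caller and says nothing of how strongly. A stretch without a peak did not pass the caller's threshold, which does not show that the mark was absent, and in bulk chromatin a mark in fewer cells and a weaker mark in all cells cannot be told apart. Lists held 26489 to 50496 peaks per library for H3K4me3, 60786 to 94286 for H3K27ac and 99749 to 126503 for H3K4me1. Over the genome, H3K4me1 peaks covered 61.0 and 63.8 Mb in the 4% libraries, against 105.9 and 81.8 Mb in the 20% libraries. H3K27ac peaks covered 56.9 and 75.2 Mb, against 59.6 and 65.4 Mb, and H3K4me3 peaks 48.2 and 54.3 Mb, against 56.1 and 49.7 Mb. For these marks the read depth is unknown, since the lists carry no counts. H3K36me3 libraries held 17535 to 20804 islands with 13350093 to 25048785 reads in them, and H3K27me3 libraries 22718 to 34471 islands with 8479517 to 12228541 reads. The file headers name 3 flow cells: all second replicates shared a flow cell, and among first replicates the 4% libraries other than H3K4me1 were on a different flow cell from the 20% libraries, so that oxygen and flow cell cannot be told apart there. Within 1 kb of their starts, 6 of 6 neuroblastoma marker genes with a listed start carried H3K4me3 and H3K27ac in all 4 libraries of each mark, and 6 of 6 markers of other cell types carried no H3K4me3 in any; 5 of those 6 carried no H3K27ac in any. Of the 8 markers of other cell types, 5 had H3K27ac somewhere in their windows, and Cd68 alone was separated, with 17.2% and 14.3% at 4% oxygen, against 8.73% and 7.96% at 20% oxygen; its part in the results was not tested.

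Each mark has 2 libraries per oxygen level, so the smallest exact permutation p for a difference in covered share is 0.333, and no difference in covered share could pass a threshold of 0.05. Groups are therefore called separated where both 4% libraries lay above, or both below, both 20% libraries. Of the 20 combinations of gene and mark, 16 had coverage in at least 1 library, 4 were separated with 4% oxygen above and 2 with 4% oxygen below. Over all genes with coverage the separated shares were, above and below, 4.41% and 15.9% for H3K4me3, 23.8% and 7.64% for H3K27ac, 0.284% and 62.4% for H3K4me1, and 9.85% and 21.0% for H3K36me3. The 4 above were H3K27ac over Slc16a1 and Slc16a3, H3K4me3 over Slc16a3 and H3K4me1 over Car9. The 2 below were H3K27ac over Car9 and H3K4me1 over Slc16a1. Both Car9 combinations rested on single small peaks, and the differences of the transporters were larger.

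**Figure D1:**
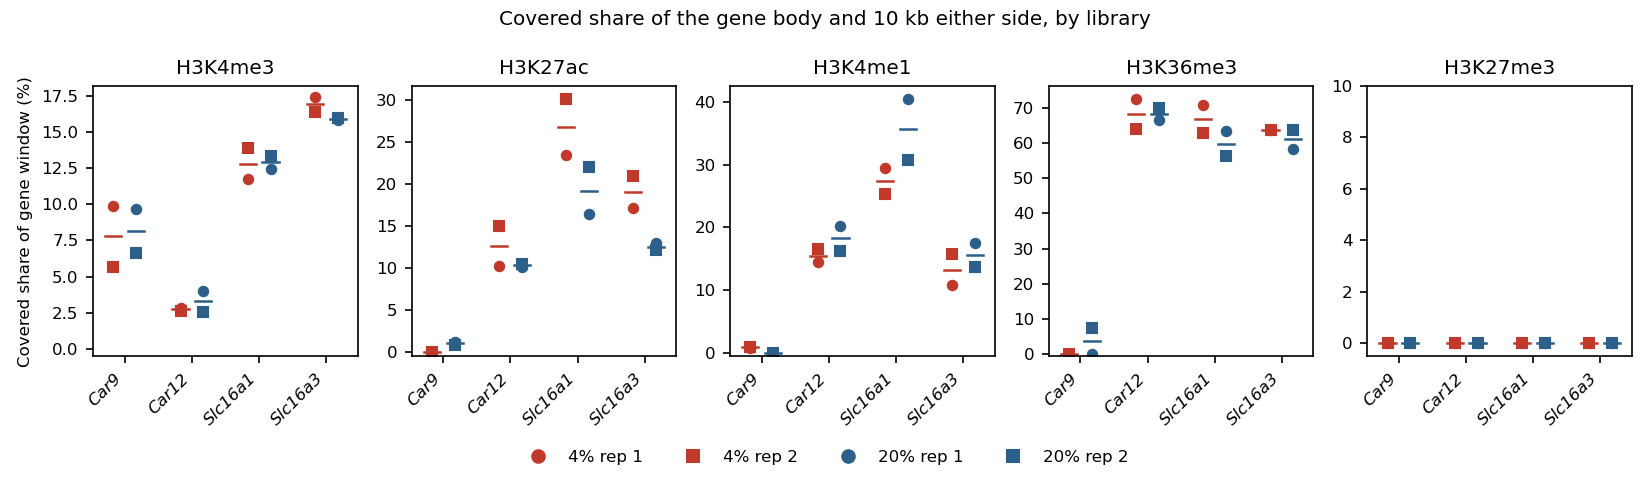
Covered share of each gene's window in percent (vertical axis, own scale for each mark) for Car9, Car12, Slc16a1 and Slc16a3, with 4% oxygen in red and left of 20% oxygen in blue. Circles are first replicates, squares second replicates and short lines group means. The H3K27ac points of Slc16a1 and Slc16a3 at 4% oxygen lie above those at 20% oxygen, the H3K4me1 points of Slc16a1 lie below, and H3K27me3 is at 0 throughout.

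Car9 lies on chromosome 4 from 43507026 to 43513729 on the + strand. Its start carried no peak or island of any of the 5 marks within 1 kb in any of the 20 libraries, at 4% or at 20% oxygen. CA9 is in many human tumour cells among the genes that hypoxia raises most. The H3K4me3 in Car9's window lay over the records of its neighbours. The record of Arhgef39, on the opposite strand, overlaps the first 1722 bp of Car9 and starts at 1.72 kb, and Tpm2, also on the opposite strand, starts at 16.53 kb from the Car9 start.

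H3K4me3 covered 9.89% and 5.69% of the Car9 window in the 4% libraries, against 9.69% and 6.60% in the 20% libraries. The groups overlapped, and in each of them the first replicate was the higher. This coverage fell into 3 merged regions, a merged region being the union of overlapping peaks of the 4 libraries. The region at 1.23 to 1.89 kb, inside Car9 and over the start of Arhgef39, had 451 and 0 bp of peaks at 4% oxygen and 666 and 186 bp at 20% oxygen. The regions at -8.20 to -6.86 kb, inside Arhgef39, and at 15.64 to 16.90 kb, over the start of Tpm2, were present in all 4 libraries.

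H3K27ac in the Car9 window was absent from both 4% lists and present once in each 20% list, as peaks of 310 and 229 bp that cover 1.16% and 0.858% of the window. The peaks share a merged region at -7.73 to -7.42 kb, inside Arhgef39 and inside the H3K4me3 region just described. It was the 1 H3K27ac region of the 4 windows found in both 20% lists and in neither 4% list, and 1.55% of all H3K27ac regions had this form. Over all marks there were 4 such regions among the 96 merged regions of the 4 windows, of which 3 were of H3K4me1. The deposited scores of the 2 peaks stood at the 48.8 and 55.4 percentiles of their lists.

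H3K4me1 covered 0.873% and 0.996% of the Car9 window in the 4% libraries and none of it in the 20% libraries. Counted over the window this separates the oxygen levels with 4% above, as in 0.284% of genes. The 2 peaks were at different places, however: 233 bp at 14.82 to 15.06 kb in the first replicate and 266 bp at 13.46 to 13.72 kb in the second. They share no base, and both lie inside Tpm2 and past the end of Car9. With peaks of a deposited score of at least 5 the groups were no longer separated. H3K36me3, the mark of transcribed bodies, covered none of the Car9 window at 4% oxygen. At 20% oxygen it covered 0 and 7.40%, the higher value from an island of 70 reads that ends 8.03 kb before the start of Car9. The same merged region, from -12.22 to -8.03 kb, also held 2200 bp with 52 reads in the second 4% library. That part lay just outside the window, so the region was not particular to 20% oxygen.

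Car12 lies on chromosome 9 from 66712296 to 66766845 on the + strand, with its start at 66713686. Unlike Car9 it carried H3K4me3 at its start in every library, in a merged region from -0.48 to 1.99 kb with 2093 and 1978 bp of peaks at 4% oxygen, against 2293 and 1922 bp at 20% oxygen. The values of the oxygen levels overlapped. Over the window H3K4me3 covered 2.81% and 2.65% at 4% oxygen, against 4.01% and 2.58% at 20% oxygen, where the highest value included a further peak of 700 bp at 9.11 to 9.81 kb in 1 library.

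H3K27ac at the Car12 start differed between the oxygen levels. Within 1 kb of the start, peaks covered 1231 and 1297 bp in the 4% libraries, against 0 and 672 bp in the 20% libraries. Both 4% libraries were above both 20% libraries, as at 23.1% of gene starts with H3K27ac, while 11.3% had both below. The merged region ran from -0.30 to 1.31 kb and lay within the H3K4me3 region, so that most of the printed Car12 promoter, which holds neither motif, was under H3K27ac peaks at 4% oxygen. The 672 bp peak at 20% oxygen began at 0.30 kb, past the printed promoter. Over the whole window the difference was not separated: H3K27ac covered 10.3% and 15.0% at 4% oxygen, against 10.2% and 10.5% at 20% oxygen, a difference of 2.34 points (two-sided exact permutation test, p = 0.667) that came to -0.0040 points without the second 4% library. With the same number of peaks taken from each list the window groups were separated, with a difference of 0.993 points.

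Most of the Car12 H3K27ac lay inside the gene. The region at 6.33 to 11.46 kb had 3067 and 4993 bp of peaks at 4% oxygen, against 3335 and 4411 bp at 20% oxygen. The region at 21.19 to 24.05 kb had 2695 and 2331 bp at 4% oxygen, against 2783 and 2346 bp at 20% oxygen. Both were present in all 4 libraries with overlapping values, and both overlapped H3K4me1 regions that were also present in all 4, at 6.48 to 11.09 kb and 20.83 to 24.47 kb. A further such site with both marks in all libraries lay at 32.12 to 32.92 kb for H3K27ac and 30.16 to 33.86 kb for H3K4me1. Both 4% libraries were thus above at the start, while these intragenic sites overlapped between oxygen levels. In the first replicates the start region had 1386 bp at 4% and 0 bp at 20% oxygen, and the window 7688 and 7578 bp. In the second replicates the start region had 1538 and 672 bp, and the window 11183 and 7804 bp. The difference in the second replicates was therefore not confined to the start.

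H3K4me1 covered 14.4% and 16.5% of the Car12 window at 4% oxygen, against 20.3% and 16.3% at 20% oxygen, with overlapping groups. Within 5 kb of the start, a window added after the data had been seen, the 4% libraries had no H3K4me1 and the 20% libraries had 1321 and 391 bp. Both 4% libraries were thus below both 20% libraries there, as at 59.4% of gene starts with H3K4me1 in such a window, while 0.319% had both above. The peaks of the 20% libraries were small and shared no site.

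**Figure D2:**
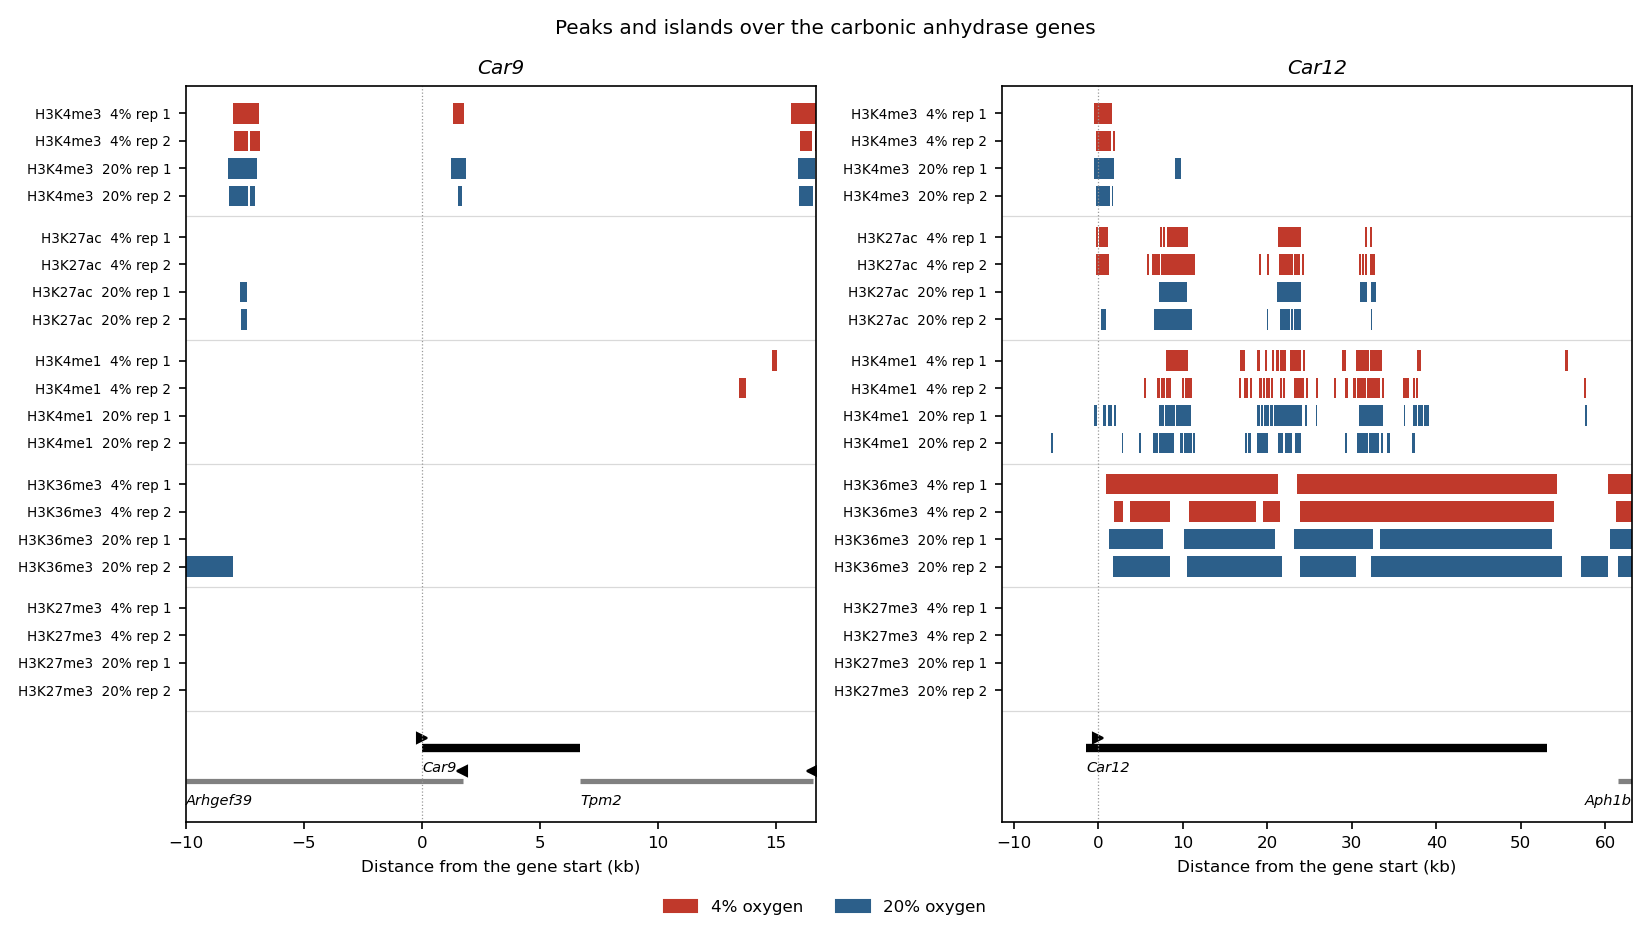
Peaks and islands over Car9 and Car12 by library, with 4% oxygen (red) above 20% oxygen (blue) for each mark; the horizontal axis is the distance from the gene start in kb, black bars are the gene records, grey bars the neighbouring records, and triangles their starts and strands. The Car9 start has no peak in any library, and the Car12 start has H3K27ac in both 4% libraries and in 1 of the 2 at 20% oxygen.

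H3K36me3 covered 72.5% and 63.9% of the Car12 window at 4% oxygen, against 66.6% and 69.8% at 20% oxygen, and the group means were equal. The lists of this mark carry reads per island, so that density could be tested with edgeR's quasi-likelihood test over 10858 merged regions, with the covered length of each library as an offset and Benjamini-Hochberg adjustment. At an adjusted p under 0.05, 0 of the 10858 regions were called in either direction, against 965 at an unadjusted p under 0.05; DESeq2 called 2 higher at 4% oxygen. For H3K27me3, 0 of 10177 regions were called by edgeR, and 960 had an unadjusted p under 0.05; by DESeq2 the count was 0.

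In the first island domain of Car12, from 0.92 to 21.71 kb, the density was 2.24 and 2.42 reads per kb of island and per 1000000 reads in islands at 4% oxygen, against 1.82 and 1.75 at 20% oxygen. The groups did not overlap here, nor in the later Car12 domains or the Slc16a1 gene body domain described below. How many of all regions tested have groups that do not overlap was not counted. The log2 ratio of 4% to 20% oxygen in the first Car12 domain was 0.33 ± 0.12 (SE, n = 2 each). It did not pass the threshold (edgeR, adjusted p = 0.497, unadjusted p = 0.0252). The ratio was larger than that of 95.7% of regions tested. The second domain, from 23.12 to 54.91 kb, had 2.55 and 2.42 at 4% oxygen, against 2.03 and 2.17 at 20% oxygen (log2 ratio 0.20 ± 0.11, edgeR, adjusted p = 0.610). The islands from 57.12 kb on lie past the gene, partly over Aph1b, the next record. Their density was 2.41 and 2.39 at 4% oxygen, against 2.15 and 1.73 at 20% oxygen (log2 ratio 0.25 ± 0.14, edgeR, adjusted p = 0.602). That ratio was larger than that of 90.8% of regions tested, so a higher density at 4% oxygen was not particular to the Car12 gene body.

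Slc16a1 lies on chromosome 3 from 104638664 to 104658462 on the + strand, and its window holds no other record of the gene table. MCT1, its product, carries lactate and pyruvate in either direction across the membranes of many tissues. H3K27ac covered 23.5% and 30.2% of the window in the 4% libraries, against 16.5% and 22.0% in the 20% libraries. Both 4% libraries were above both 20% libraries. The means were 26.9% ± 4.74 at 4% oxygen and 19.3% ± 3.89 at 20% oxygen (SD, n = 2 each), a difference of 7.61 points (two-sided exact permutation test, p = 0.333). It was 7.01 points in the first replicates and 8.21 points in the second, where all libraries shared a flow cell. The difference was larger than that of 98.8% of the 14341 genes with H3K27ac, whose median was 0.37 points. Mean H3K27ac coverage was itself above that of 95.8% of all protein-coding genes. The rank of the difference was not taken among genes of like coverage. With the same number of peaks taken from each list the difference was 8.41 points.

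The larger H3K27ac coverage of Slc16a1 at 4% oxygen was mostly away from the promoter. The merged region just before the start, at -1.07 to -0.10 kb, had 929 and 861 bp of peaks at 4% oxygen, against 923 and 886 bp at 20% oxygen. The region over the start, at -25 to 1501 bp, had 1238 and 1487 bp at 4% oxygen, against 1124 and 1238 bp at 20% oxygen. The first of these regions includes the CACGTG at -200 of the printed promoter, and the second the ACGTG at 21. In the second 4% library, however, the CACGTG lay in a gap between 2 peaks, from -0.21 to 0.01 kb. Within 1 kb of the start, coverage was 1926 and 1773 bp at 4% oxygen, against 1690 and 1715 bp at 20% oxygen, with both 4% libraries above.

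Inside the gene, the region at 2.43 to 5.45 kb had 1810 and 2405 bp of H3K27ac peaks at 4% oxygen, against 988 and 1244 bp at 20% oxygen. A region at 6.42 to 6.97 kb had 236 and 550 bp at 4% oxygen and no peak in either 20% list. It was the 1 region of this form among the 27 H3K27ac regions of the 4 windows, beside 2.59% of all H3K27ac regions. Past the gene end, the region at 22.45 to 25.20 kb had 2107 and 2573 bp at 4% oxygen, against 1094 and 1720 bp at 20% oxygen. The region at 5.58 to 6.27 kb had 507 and 672 bp at 4% oxygen, against 486 and 485 bp at 20% oxygen. These regions are given for their values only. How many of all H3K27ac regions have both 4% libraries above both 20% libraries was not counted. Some other regions of the window overlapped between oxygen levels. That at -1.86 to -1.20 kb had 278 and 448 bp, against 0 and 472 bp. At 1.73 to 2.15 kb there were 0 and 186 bp, against 0 and 408 bp. At 21.86 to 22.38 kb there were 0 and 476 bp, against 0 and 372 bp.

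A broad H3K27ac domain followed at 27.52 to 36.88 kb, which the window reaches only in part. It measured 9330 and 9267 bp at 4% oxygen, against 9026 and 8949 bp at 20% oxygen, with the 4% libraries slightly above. Its main peak was among the best scored of each list, at the 98.8 and 99.3 percentiles at 4% oxygen and the 98.9 and 99.6 percentiles at 20% oxygen.

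H3K4me1, which flanks promoters and marks enhancers, covered less of Slc16a1 at 4% oxygen, as it did of the genome as a whole. It covered 29.5% and 25.3% of the window at 4% oxygen, against 40.5% and 30.8% at 20% oxygen, with both 4% libraries below. The means were 27.4% ± 2.96 at 4% oxygen and 35.6% ± 6.88 at 20% oxygen (SD, n = 2 each), a difference of -8.19 points (two-sided exact permutation test, p = 0.333), against a median of -2.65 points over genes with H3K4me1. A still lower difference was found in 13.0% of genes, and 62.4% of genes were separated in this direction. Mean H3K4me1 coverage of Slc16a1 was above that of 98.7% of all protein-coding genes, and genes of like coverage were not ranked apart. With the same number of peaks from each list the difference was -6.66 points and the groups overlapped. In H3K4me1, 3 merged regions were found in both 20% lists and in neither 4% list, as were 6.22% of all H3K4me1 regions, and 0 were found in both 4% lists and in neither 20% list, as were 0.807%. They were at -1.88 to -1.12 kb with 758 and 225 bp, at 12.21 to 12.71 kb with 393 and 388 bp and at 12.98 to 13.45 kb with 228 and 296 bp.

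H3K4me3 at the Slc16a1 start spanned -2.34 to 2.97 kb, with 4679 and 5112 bp of peaks at 4% oxygen, against 4957 and 5308 bp at 20% oxygen. The groups overlapped. H3K36me3 covered 70.9% and 62.8% of the window at 4% oxygen, against 63.3% and 56.3% at 20% oxygen, which overlapped as well, although the 4% library was the higher in each replicate, by 7.54 and 6.53 points. Read density in the island domain over the gene body, from 0.74 to 22.94 kb, was 3.92 and 4.07 at 4% oxygen, against 3.46 and 3.60 at 20% oxygen (log2 ratio 0.13 ± 0.11, edgeR, adjusted p = 0.743). A separate H3K36me3 domain lay upstream of the gene, at -9.46 to -1.46 kb, in all 4 libraries. It had 2.77 and 2.61 at 4% oxygen, against 2.07 and 2.68 at 20% oxygen (log2 ratio 0.14 ± 0.16, edgeR, adjusted p = 0.813), and no record of the gene table used here covers it.

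**Figure D3:**
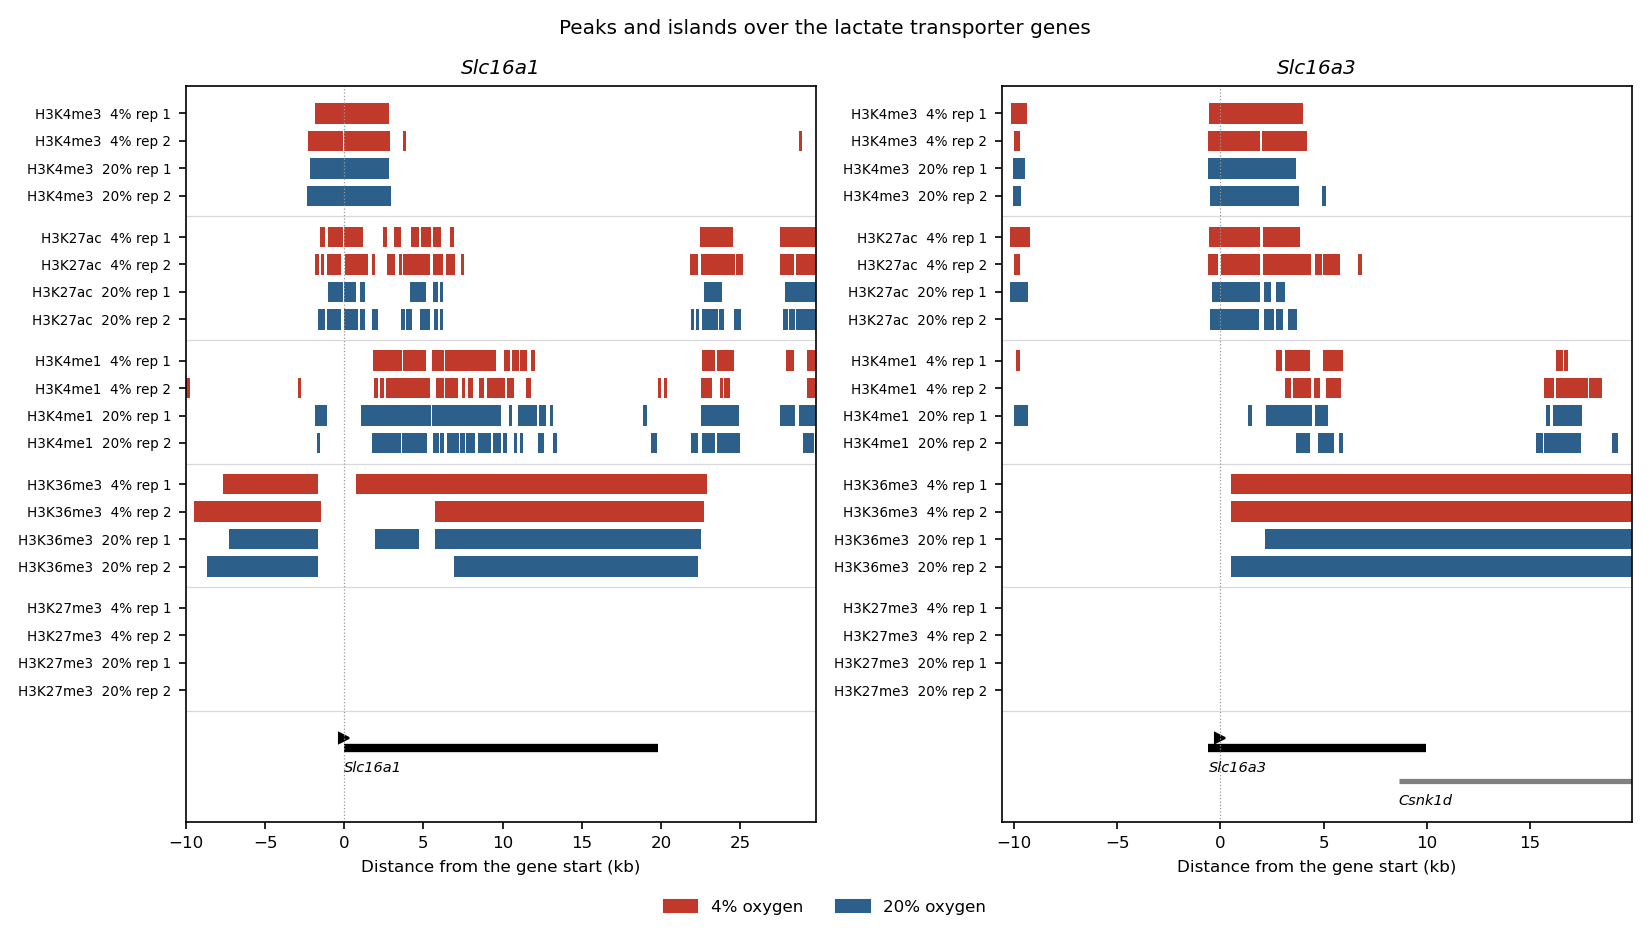
Peaks and islands over Slc16a1 and Slc16a3 by library, with 4% oxygen (red) above 20% oxygen (blue) for each mark; the horizontal axis is the distance from the gene start in kb, black bars are the gene records, grey bars the neighbouring records, and triangles the starts and strands where listed. H3K27ac extends further into both genes in the 4% libraries, and H3K4me3 over each start is present in all 4 libraries.

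Slc16a3 lies on chromosome 11 from 120948484 to 120959000 on the + strand, with its start at 120949067. Its product, MCT4, is the main lactate exporter of strongly glycolytic cells. H3K27ac covered 17.1% and 20.9% of the window in the 4% libraries, against 13.0% and 12.1% in the 20% libraries. Both 4% libraries were above both 20% libraries. The means were 19.02% ± 2.70 at 4% oxygen and 12.6% ± 0.646 at 20% oxygen (SD, n = 2 each), a difference of 6.46 points (two-sided exact permutation test, p = 0.333). It was 4.09 points in the first replicates and 8.82 points in the second. The difference was larger than that of 98.1% of genes with H3K27ac. Mean H3K27ac coverage was itself above that of 91.2% of all protein-coding genes, and genes of like coverage were not ranked apart.

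**Figure D4:**
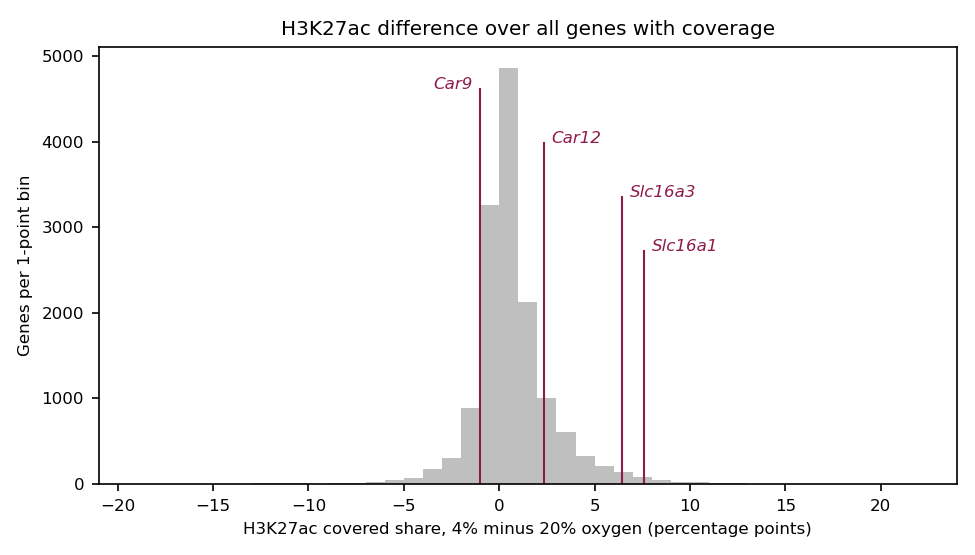
Number of genes (vertical axis) by the difference in H3K27ac covered share, 4% minus 20% oxygen, in percentage points (horizontal axis, bins of 1 point), for 14341 genes with H3K27ac in their windows. Lines mark Slc16a1 at 7.61, Slc16a3 at 6.46, Car12 at 2.34 and Car9 at -1.01 points; the line heights carry no value.

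At Slc16a3 the additional H3K27ac of the 4% libraries was mostly inside the gene, past the start region. The region over the start, at -0.60 to 1.92 kb, had 2465 and 2364 bp of peaks at 4% oxygen, against 2308 and 2394 bp at 20% oxygen, with overlapping groups. The merged region includes the ACGTG matches at -27 and -14, but in the second 4% library they lay in a gap between 2 peaks, from -0.12 to 0.04 kb. Within 1 kb of the start coverage was 1542 and 1454 bp at 4% oxygen, against 1399 and 1512 bp at 20% oxygen. The next region, at 2.06 to 4.39 kb, had 1790 and 2327 bp at 4% oxygen, against 777 and 1302 bp at 20% oxygen. Smaller regions at 4.56 to 4.90, 4.96 to 5.80 and 6.64 to 6.85 kb were found in the second 4% library alone. Within each list, the largest peak at the start ranked at the 98.9 and 99.4 percentiles of score at 4% oxygen and the 91.0 and 96.9 percentiles at 20% oxygen, in lists of different lengths.

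H3K4me3 at Slc16a3 covered 17.4% and 16.4% of the window at 4% oxygen, against 15.8% and 16.0% at 20% oxygen. Both 4% libraries were above both 20% libraries, by a mean of 1.02 points, larger than the difference of 94.5% of the 15312 genes with H3K4me3. Mean H3K4me3 coverage of Slc16a3 was above that of 87.5% of all protein-coding genes. The domain at the start ran from -0.60 to 4.19 kb, over the same stretch of the gene as the H3K27ac regions, with 4573 and 4691 bp at 4% oxygen, against 4245 and 4320 bp at 20% oxygen. With the same number of peaks from each list the difference was 1.42 points and the groups overlapped. A second small region present in all 4 lists lay at -10.13 to -9.38 kb. In the 4 windows together no H3K4me3 or H3K36me3 region was found in both libraries of 1 oxygen level and neither of the other. Over the genome 0.482% of H3K4me3 and 1.01% of H3K36me3 regions were found in both 4% lists and neither 20% list, and 0.841% and 2.68% the other way round.

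H3K4me1 covered 10.8% and 15.8% of the Slc16a3 window at 4% oxygen, against 17.5% and 13.7% at 20% oxygen, with overlapping groups. H3K36me3 covered 63.6% and 63.6% at 4% oxygen, against 58.3% and 63.6% at 20% oxygen. Its merged island domain, from 0.53 to 41.33 kb, runs on through Csnk1d, whose record overlaps the last 1292 bp of Slc16a3, so its reads cannot be divided between the genes. The density of the domain was 5.38 and 4.40 at 4% oxygen, against 4.74 and 4.22 at 20% oxygen (log2 ratio 0.07 ± 0.13, edgeR, adjusted p = 0.896). H3K27me3 covered none of the windows of Car9, Car12, Slc16a1 and Slc16a3 in any library, as for 64.4% of all genes.

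The 4 genes also differed in their chromatin as such. By the covered share over 20 libraries, with the root mean square difference as the measure of likeness, the genes most like Car9 were H2-T22 at 1.05, Phldb3 at 1.12 and Smim10l2a at 1.39 points, against a median of 20.6 points over all genes. Those most like Car12 were Galnt2 at 2.68, Dtnb at 2.74 and Arhgap22 at 2.97 points, against a median of 25.9. For Slc16a1 they were Tle3 at 3.37, P4ha2 at 3.59 and Hdac5 at 3.99 points, against a median of 27.1. For Slc16a3 they were Ube2b at 2.79, Wdr4 at 2.90 and Tuba1c at 3.01 points, against a median of 23.6. Mean H3K27ac of the genes most like the transporters was 27.01% at 4% oxygen and 21.4% at 20% oxygen for P4ha2, and 19.01% at 4% oxygen and 13.6% at 20% oxygen for Tuba1c. The other 4 differed less: Tle3 had 23.3% at 4% oxygen and 22.3% at 20% oxygen, Hdac5 18.3% at 4% oxygen and 16.7% at 20% oxygen, Ube2b 12.1% at 4% oxygen and 11.4% at 20% oxygen, and Wdr4 14.7% at 4% oxygen and 14.4% at 20% oxygen. The genes nearest to Car9 had mean H3K4me3 of 9.10%, 5.96% and 6.96% at 4% oxygen. Their mean H3K36me3 at 20% oxygen was 5.22%, 4.10% and 6.195%, while Car9 had 0 and 7.40% in its 2 libraries. The genes nearest to the other 3 carried H3K4me3, H3K27ac, H3K4me1 and H3K36me3 together. All these genes were chosen by the same covered shares, so traits they have in common with the 4 genes follow from the choice.

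Among the 14 other carbonic anhydrase genes, 8 had H3K27ac in their windows, of which 3 were separated with 4% oxygen above and 0 below. Car8, whose product lacks catalytic activity, had 10.4% and 7.52% at 4% oxygen, against 6.63% and 3.18% at 20% oxygen. Car7, encoding a cytosolic enzyme, had 4.99% and 5.88% at 4% oxygen, against 4.41% and 4.49% at 20% oxygen, and Car4, encoding a membrane-anchored one, had 2.30% and 1.56% at 4% oxygen, against 0.781% and 1.43% at 20% oxygen. The median difference of the list was 0.90 points, against 0.37 over all genes. H3K27me3, absent from Car9 and Car12, covered 72.1% and 93.2% of the window of Car6, which encodes a secreted enzyme, at 4% oxygen, against 53.9% and 52.1% at 20% oxygen. Of the 8 genes of the list with H3K27me3, 2 were separated with 4% oxygen above and 1 below, against 22.9% and 5.14% of genes with H3K27me3. H3K4me1 was separated with 4% oxygen below in 3 of 9 and above in 0, H3K4me3 below in 2 of 7 and above in 0, and H3K36me3 above in 2 of 6 and below in 1.

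Among the 12 other genes of the Slc16 family, 9 had H3K27ac, of which 1 was separated with 4% oxygen above and 1 below. Slc16a6 had 8.77% and 8.15% at 4% oxygen, against 7.41% and 6.30% at 20% oxygen, and Slc16a5 had 8.97% and 8.96% at 4% oxygen, against 11.1% and 9.08% at 20% oxygen. The median difference of the list was -0.04 points. The widest gap in the family was in H3K27me3 over Slc16a10, which encodes a transporter of aromatic amino acids: it covered 16.7% and 19.5% at 4% oxygen, against 49.7% and 66.1% at 20% oxygen. It was the 1 gene of 6 with H3K27me3 that was separated below, and 0 were above. H3K4me1 was separated with 4% oxygen below in 5 of 10 and above in 0, H3K4me3 above in 1 of 9 and below in 2, and H3K36me3 in 0 of 9 either way.

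Among 10 genes for transporter chaperones and for lactate and pyruvate handling, 2 of 7 with H3K27ac were separated with 4% oxygen above and 0 below. Ldha, which encodes the lactate dehydrogenase subunit that favours lactate formation, had 39.2% and 47.4% at 4% oxygen, against 35.1% and 36.2% at 20% oxygen, a difference of 7.69 points. Slc5a12, a sodium-coupled lactate transporter gene, had 1.30% and 1.51% at 4% oxygen, against 0.809% and 0.974% at 20% oxygen. Bsg encodes basigin, the chaperone that brings MCT1 and MCT4 to the membrane. Its H3K36me3 coverage was 55.7% and 57.1% at 4% oxygen, against 49.2% and 55.0% at 20% oxygen, and its H3K4me1 coverage 19.5% and 10.4% at 4% oxygen, against 37.0% and 25.4% at 20% oxygen. In the list 3 of 7 genes were separated above for H3K36me3 and 1 below, and 5 of 6 below for H3K4me1 and 0 above. No gene was separated among 7 with H3K4me3 or 3 with H3K27me3. H3K4me1 over Ldha covered 21.1% and 21.5% at 4% oxygen, against 37.5% and 26.2% at 20% oxygen. Ldha was also the gene separated below for H3K36me3, with 33.0% and 31.2% at 4% oxygen, against 36.6% and 35.4% at 20% oxygen.

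Among 12 genes of proton and bicarbonate exchange, 10 had H3K27ac, of which 1 was separated with 4% oxygen above and 0 below. That gene was Slc4a10, a sodium-coupled bicarbonate transporter of neurons, with 1.06% and 1.37% at 4% oxygen, against 0.738% and 1.06% at 20% oxygen, so its groups were apart by only 0.0023 points. For H3K36me3, 1 of 10 was separated above and 4 below. Slc4a7, which encodes a sodium-bicarbonate cotransporter, had 70.0% and 67.9% at 4% oxygen, against 81.1% and 79.2% at 20% oxygen. H3K4me1 was separated with 4% oxygen below in 7 of 11 and above in 0, H3K4me3 below in 4 of 10 and above in 0, and H3K27me3 above in 1 of 4 and below in 1. Counts over these lists carry no test and were read beside the shares over all genes, among which 4% oxygen was more often above for H3K27ac and more often below for H3K4me1 and H3K36me3.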

How the data were processed

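Per the labels, chromatin was immunoprecipitated from N1E115 cells for 5 marks, with 2 libraries per mark and oxygen level. Per the submitters' processing notes, BWA, Picard, MACS2 and SICER were used with mm10; their versions are not given in the sources used here. Per the file headers, each library had its own peak calling. For H3K4me3, H3K27ac and H3K4me1 the deposited value is a −log10 score, not labelled as p or q (lowest 2.01 to 2.11), used only to rank or filter peaks within a list. For H3K36me3 and H3K27me3 the last deposited column holds whole numbers, read as read counts per island. Chromosomes other than 1 to 19, X and Y were left out. The intervals of the second MACS2 libraries stood in files listed under the first; names and scores matched the second library's summits for 100% of entries. Second SICER files matched for 100% and were used once. Nothing in the labels says that libraries came from separate cultures, so their spread may be technical. Each replicate number has its own input number, but the labels do not say that same-numbered libraries were paired, so the main tests have no replicate block.

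Covered shares of gene windows were computed in Python 3.11.15 (numpy 2.4.6, pandas 2.3.3, scipy 1.17.1). Island counts were summed per merged region with an island in all 4 libraries and tested with edgeR 4.0.16 in R 4.3.3 (quasi-likelihood test, TMM, covered-length offset, Benjamini-Hochberg adjustment, threshold 0.05), and with DESeq2 1.42.0; scripts were tested on simulated data. Strand and start came from the RefSeq promoter table, which lists a start for 17492 of 21887 genes; exon structure was not used here. The genes and lists were chosen with earlier results of these data known. Apart from the 4 genes, the text names regions within 1 kb of a gene start or in both lists of 1 oxygen level and neither of the other, at most 3 list genes per mark and direction (separated groups, largest smallest gap), and the 3 most alike genes; other regions and neighbours were named for their position or chosen after their values were seen. Alternatives were other windows, a stricter score, equal peak numbers, other normalizations and filters, and each library left out.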

Additional observations from a re-analysis of the deposited data

How the results depend on the processing

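In the 6 alternatives that could undo a separation (other windows, a stricter score, equal peak numbers, a minimum gap), Slc16a3 H3K27ac stayed separated in 6, Slc16a1 H3K27ac in 5 (not within 5 kb of the start), Slc16a1 H3K4me1 in 4, Slc16a3 H3K4me3 in 4, Car9 H3K27ac in 2 and Car9 H3K4me1 in 1. The count above (4) and below (2) was 3 and 1 with 2 kb flanks, 3 and 0 in the gene body alone, and 2 and 1 with a gap of at least 1 point; 5 kb around the start, chosen after seeing the data, gave 3 and 2. Leaving out each replicate gave 6 to 7 above and 3 to 5 below, since a group of 1 library separates more easily. Regions in both 4% lists and neither 20% list numbered 2 with peaks over at least 50% of the region and 3 with a stricter score, against 1; the other way round there were 2 and 3, against 4. Of 180 alternative differences in covered share, 163 moved by less than 1 SD and 17 moved further. The 163 include every H3K27me3 difference, and these could not move, since that mark had no coverage in any window. The sign changed in 9, from 5 combinations whose groups overlapped (H3K4me3 of Car9, Car12 and Slc16a1, H3K27ac of Car12, H3K4me1 of Slc16a3) and from 0 separated ones.

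Of 10858 H3K36me3 regions DESeq2 called 2 higher at 4% oxygen. Without each library edgeR called 0 to 36 higher and 0 to 14 lower; H3K27me3 gave 0 to 127 higher and 0 to 1 lower. With the replicate block and length offset there were 631 higher and 532 lower for H3K36me3 and 795 and 347 for H3K27me3, and 0 with the replicate block and no length offset; the block made the first Car12 domain pass (adjusted p = 0.0280) and gave 6 combinations above and 2 below. The difference between same-numbered replicates correlated between oxygen levels over genes at 0.15 to 0.64, but only 2 pairs exist. For these counts the cause was not tested. Depth is unknown for the MACS2 marks, so small differences in covered share cannot be told from differences in depth.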
